A study of Mus musculus with 18 samples.

Results

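The extracellular matrix genes followed here are 37 genes for collagens, basement membrane and elastic fibre proteins, proteoglycans, crosslinking enzymes and adhesive proteins, taken from a fixed list of names among the 22049 genes that the 18 deposited count tables hold. Tumours were raised in female BALB/cJ mice by placing 2000000 cells of 4T1-tdTomato-luc2, a mouse breast carcinoma line with fluorescent and luciferase labels, into the mammary fat pad at 7 to 8 weeks of age, and healthy mice of the same strain and sex received no tumour cells. Lung, spleen and an implanted biomaterial scaffold were taken 7, 14 and 21 days later, at 9, 10 and 11 weeks of age. Drop-seq, which catches each cell with a barcoded bead and counts transcript ends by unique molecular identifier (UMI), gave 1 library for each tissue, status and day, so that each of the 6 groups of tissue and status has 3 libraries. The labels used here give neither the material nor the place of the scaffold, nor the number of animals behind a library, so p-values measure the spread between libraries.

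The matrix is the protein mesh that holds cells in place. Fibroblasts make most of it: fibrillar collagens give tensile strength, proteoglycans such as decorin and lumican space the fibrils, lysyl oxidases crosslink them, and fibronectin links the mesh to integrins on cells. Basement membranes of collagen IV, laminin and nidogen underlie endothelium and epithelium, and elastin on fibrillin microfibrils lets the lung recoil. An implant is met by macrophages and fibroblasts that lay down new matrix around it.

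Sequences just upstream of the annotated start are shown for 3 members that the results below turn on, the fibrillar collagen pair Col1a2 and Col3a1, which were read almost wholly in 1 kind of cell, and Vcan, which was not. Each is the 250 bases before the start in RefSeq's annotation of GRCm38.p6, 5′ to 3′ on the gene's strand, at chr6:4505368-4505617 (plus strand), chr1:45311288-45311537 (plus strand) and chr13:89742513-89742762 (minus strand). Capitals mark a CCAAT or TATAAA motif on either strand.
Col1a2: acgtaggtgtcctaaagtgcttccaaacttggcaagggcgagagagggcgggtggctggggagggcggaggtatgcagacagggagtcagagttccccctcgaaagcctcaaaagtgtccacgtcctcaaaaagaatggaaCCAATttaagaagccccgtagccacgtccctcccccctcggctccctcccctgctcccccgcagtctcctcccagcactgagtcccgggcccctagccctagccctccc
Col3a1: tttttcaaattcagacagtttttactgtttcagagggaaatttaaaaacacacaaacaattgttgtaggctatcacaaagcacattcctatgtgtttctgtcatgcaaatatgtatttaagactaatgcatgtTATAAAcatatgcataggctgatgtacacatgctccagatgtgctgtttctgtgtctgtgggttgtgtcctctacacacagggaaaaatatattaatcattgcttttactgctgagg
Vcan: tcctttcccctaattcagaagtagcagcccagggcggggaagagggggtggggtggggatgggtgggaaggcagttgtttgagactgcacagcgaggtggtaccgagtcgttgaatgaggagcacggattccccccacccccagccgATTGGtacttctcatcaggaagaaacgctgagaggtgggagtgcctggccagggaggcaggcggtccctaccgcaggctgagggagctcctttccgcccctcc
The capitals begin 109 bases before the start in Col1a2, 117 bases in Col3a1 (TATAAA) and 103 bases in Vcan (ATTGG, which is CCAAT on the other strand). By symbol, 22 of the 37 members matched a promoter in the RefSeq table, with 27 starts among them. CCAAT (or ATTGG) lay in 7 of these 27 windows and in 33.9% of all 32851 windows of the same length. TATAAA (or TTTATA) lay in 4 of the 27 and in 12.4% of all.

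Library totals ran from 292765 to 4530115 UMIs. After removal of barcodes with 20% or more mitochondrial UMIs, 24536 of 26397 barcodes were kept, 484 to 3387 per library, and they held 54329 UMIs of the members. All 37 members have a row in at least 1 table and 16 in every table; a missing row was read as 0. The tissues carried cells that their labels call for: 571 of 856 alveolar macrophage-like cells and 196 of 218 endothelial-like cells came from lung, and 1972 of 2677 B cell-like cells from spleen.

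Some cell barcodes recurred across the libraries of a day, in 279 of 5684 distinct barcodes at day 7, 103 of 8932 at day 14 and 1046 of 7545 at day 21. In the healthy lung and healthy spleen libraries of day 21, 80.1% and 93.3% of UMIs lay on barcodes that could not be assigned to that library (by 5 times more UMIs there than in any other library of the day), against at most 14.3% in the other 16 libraries. The results are therefore given both as deposited and after each shared barcode was assigned to 1 library or dropped. Levels are given as CPM, a member's UMIs in a library scaled to a fixed total of UMIs over all its kept cells (counts per 1000000), so fewer cells of a type and less RNA per cell cannot be told apart.

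Matrix transcripts made up a larger part of the scaffold libraries than of the lung or spleen libraries. The members together came to between 1206 and 5578 CPM in the 6 scaffold libraries (median 2084), to between 474.6 and 1903 CPM in lung (median 722) and to between 58.8 and 2249 CPM in spleen (median 143). By status and in the order of days 7, 14 and 21, they were 0.121%, 0.244% and 0.558% of UMIs in healthy scaffolds and 0.173%, 0.121% and 0.245% in scaffolds of tumour-bearing mice. In lung they were 0.0806%, 0.127% and 0.190% of UMIs in healthy mice and 0.0475%, 0.0638% and 0.0568% in tumour-bearing mice. In spleen they were 0.0141%, 0.0146% and 0.225%, and 0.0125%, 0.00588% and 0.0376%. As deposited the ranges of the 3 tissues overlapped: the healthy lung libraries of days 14 and 21 and the healthy spleen library of day 21 reached into the scaffold range. With shared barcodes assigned, scaffold ran from 1207 to 6051 CPM, lung from 199.5 to 1284 CPM and spleen from 0 to 146.9 CPM, and scaffold and lung still overlapped.

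**Figure D1:**
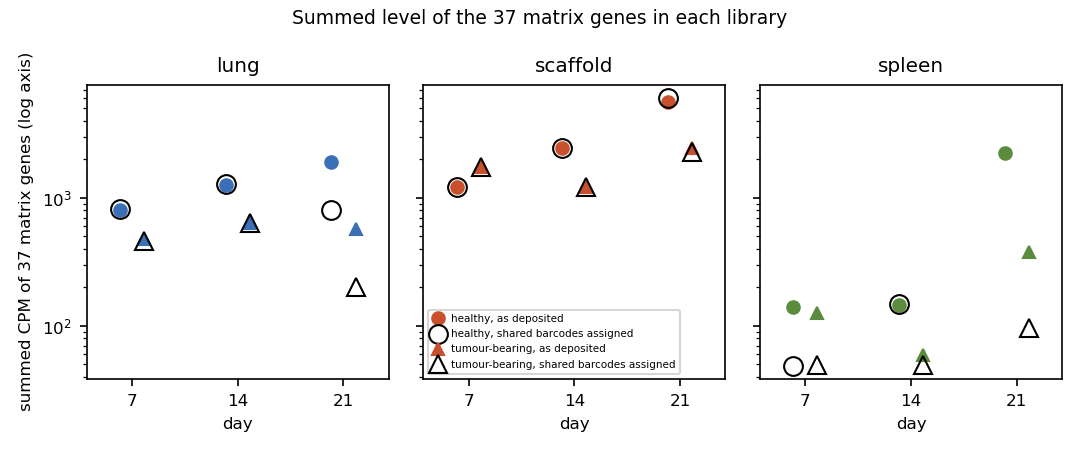
Summed CPM of the 37 members in each library (log axis), by tissue, status and day, as deposited and with shared barcodes assigned. The scaffold libraries lie between 1206 and 5578 CPM, and the healthy spleen library of day 21, at 2249 CPM as deposited, falls to 0 once shared barcodes are assigned, which a log axis cannot show.

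Most of these transcripts sat in few cells. One cluster of 333 cells, drawn without any of the 37 members among the clustering genes, raised all 19 fibroblast markers (Pdgfra, Dpt, Serping1 and others) and is called fibroblast-like. It held 38725 of the 54329 member UMIs, or 71.3%, and 31 of its cells held 50% of those. In these cells the members took a median of 5.71% of a cell's UMIs (0 to 14.2%), and a median of 14 of the 37 members was detected at a median of 802 UMIs. The 4146 macrophage-like cells, of 3 clusters, held 6027 member UMIs, or 11.1%. By tissue, fibroblast-like cells held 73.6% of member UMIs in scaffold, 60.5% in lung and 60.0% in spleen. After assignment of shared barcodes the share was 73.8% in scaffold, 48.6% in lung and 18.5% in spleen.

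Members differed in which cells carried them. The lumican gene Lum had 98.4% of its UMIs in fibroblast-like cells, and Dcn (decorin, at chr10:97479609-97518143 of GRCm38) had 97.4%. Among fibrillar collagens the share was 97.4% for Col3a1, 94.7% for Col1a2, 93.9% for Col1a1 and 93.6% for Col5a2, but 69.8% for Col5a1, which limits fibril width. Fibrillin-1 (Fbn1) at 95.2%, Clec3b (tetranectin) at 96.5%, Fstl1 at 94.0% and Sparc at 92.3% were likewise read mainly there. Col4a1 and Col4a2, the chains of basement membrane collagen IV, were divided: 55.6% and 62.1% in fibroblast-like cells, and 26.7% and 26.5% in endothelial-like cells. Igfbp7 was divided in the same way, 61.3% against 30.4%. Mfap4, a microfibril protein with 61 UMIs in all, had 52.5% in endothelial-like and 27.9% in fibroblast-like cells.

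Fn1, Vcan and Thbs1 were carried mostly by myeloid cells: the named myeloid classes (macrophage-, monocyte-, alveolar macrophage-, conventional dendritic- and neutrophil-like) held 63.6%, 53.4% and 64.9% of their UMIs. Fn1 (fibronectin, chr1:71585520-71653200) had 44.9% of its 10871 UMIs in macrophage-like cells, 23.7% in clusters without a name and 11.6% in fibroblast-like cells. Vcan (versican, a large proteoglycan, chr13:89655312-89742509) had 36.0% in monocyte-like cells and 22.3% in fibroblast-like cells. Thbs1 (thrombospondin-1, chr2:118111876-118127133) had 36.0% in monocyte-like, 21.1% in macrophage-like and 18.3% in fibroblast-like cells. The level of Fn1 within a class was, in scaffold, 2182 CPM in fibroblast-like cells and 1872 CPM in an unnamed cluster of 471 scaffold cells led by Cxcl3 and Ccl24. It was 769.2 CPM in conventional dendritic-like, 762.8 CPM in monocyte-like and 466.8 CPM in macrophage-like cells. It was 18.5 CPM in T cell-like cells, on 3 UMIs, and 12.9 CPM in neutrophil-like cells. The part of free RNA in these levels was not tested. At least 1 Fn1 UMI was seen in 31.1% of the 3113 macrophage-like scaffold cells and in 1.55% of the 194 T cell-like scaffold cells, with median depths over all tissues of 944.5 and 722 UMIs. In scaffold itself the 3 macrophage-like clusters held 5185167 UMIs on 728 cells, 3135619 on 1318 and 1042547 on 1067. The T cell-like cells there held 162376 UMIs on 194 cells, so the 2 shares are not at like depth. Vcan stood at 790 CPM in fibroblast-like, 615 CPM in monocyte-like and 13.5 CPM in macrophage-like scaffold cells. Col1a1 (chr11:94936224-94953042) stood at 4825 CPM in fibroblast-like scaffold cells and at 5.66 CPM in macrophage-like, 6.16 CPM in T cell-like and 7.18 CPM in neutrophil-like cells. The T cell-like scaffold cells held 162376 UMIs in all, so their Col1a1 value rests on very few UMIs. Macrophage-like cells were thus not shown to lie above these classes for Col1a1, and a like level was not tested.

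**Figure D2:**
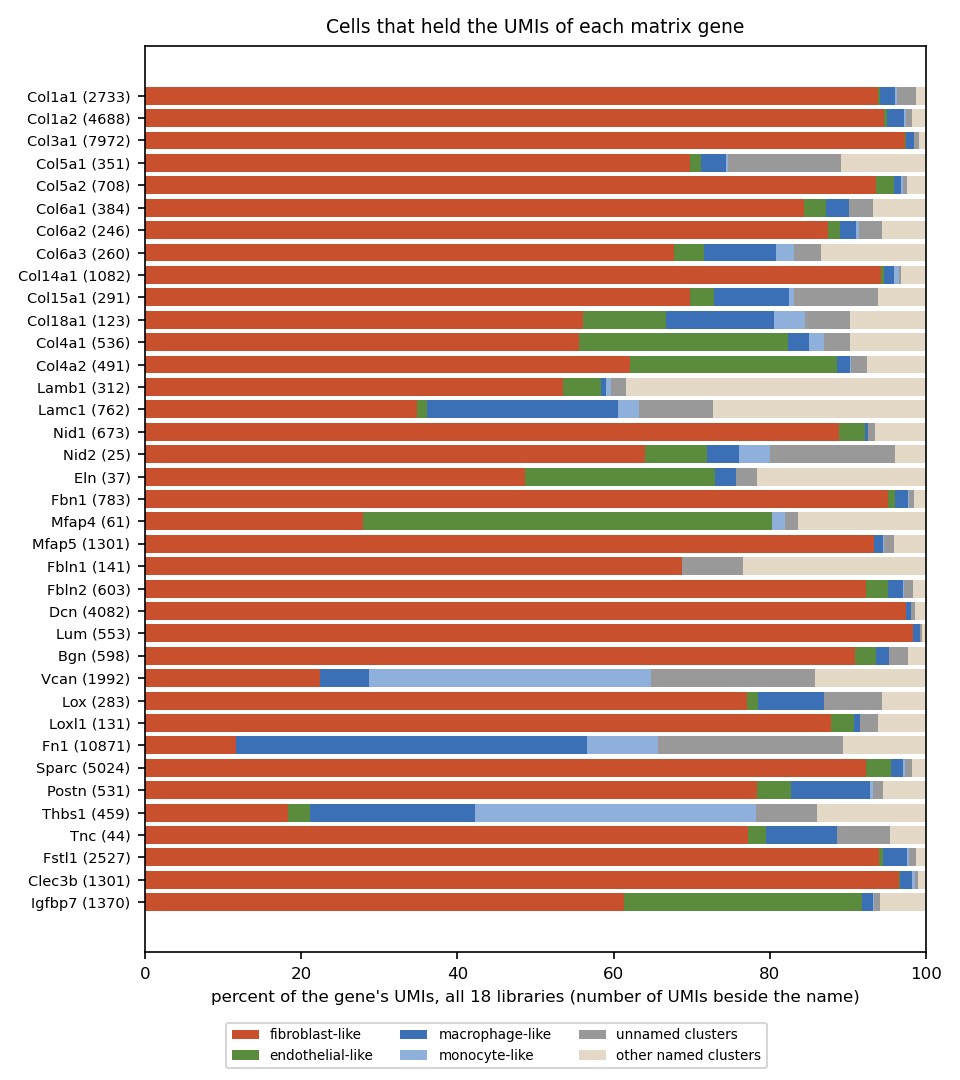
Share of each member's UMIs, over all 18 libraries, found in each class of cells, with members grouped by role. Dcn, Lum and Col3a1 lie almost wholly in fibroblast-like cells, while macrophage-like cells hold 44.9% of Fn1, and monocyte-like cells hold 36.0% of Vcan and of Thbs1.

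Fibroblast-like cells were not shown to be more frequent in scaffold than in lung. They were 0.713%, 3.36% and 3.55% of kept cells in healthy scaffolds at days 7, 14 and 21, and 0.523%, 1.14% and 3.28% in scaffolds of tumour-bearing mice. In lung they were 1.20%, 0.988% and 2.72% in healthy and 0.307%, 0.628% and 1.06% in tumour-bearing mice. The groups overlapped, at 2.10% ± 1.44 (SD, n = 6) against 1.15% ± 0.835 (SD, n = 6), 2-sided exact permutation p = 0.162. Within a status and day scaffold was higher in 5 of 6 pairs, all but healthy mice at day 7, with an exact paired permutation p of 0.0938 (smallest possible 0.0312). Of the 93 fibroblast-like lung barcodes 64 came from day 21, and 58 of these 64 could not be assigned to lung and had their most UMIs in a scaffold library. With shared barcodes assigned, 32 fibroblast-like lung cells and 174 scaffold cells were left, and the exact p was 0.121 (paired, 0.156). Macrophage-like cells were 38.6% ± 9.78 of scaffold cells and 6.77% ± 5.29 of lung cells (SD, n = 6 each, no overlap, 2-sided exact permutation p = 0.00216, the smallest that 6 against 6 libraries allow). Of the 3113 macrophage-like scaffold cells 1318 lay in a cluster led by Ccl8 and C1qa, and 1067 and 728 in the pair led by Mmp12 and Gpnmb. Of the 539 in lung these clusters held 174, 337 and 28. Of the 539 macrophage-like lung barcodes, 37 were assignable to lung.

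Scaffold against lung was tested in edgeR's quasi-likelihood model over all 18 libraries, with libraries of 1 status and day as a block and Benjamini-Hochberg adjustment over 11158 genes. Of the 37 members 33 passed the filter on low counts; Nid2 (25 UMIs in all), Eln (37), Mfap4 (61) and Tnc (44) did not. At an adjusted p under 0.05, 12 of 33 were higher in scaffold, where 9.94% of all genes tested were, and 1 was lower, where 10.1% were. In 26 of the 33 the log2 difference was positive, and the median was 1.02 against -0.03 over all genes. The count rests on the block: without it 1 member, Col15a1, passed. It was 6 without the tumour-bearing lung library of day 21 and 7 without the healthy scaffold library of day 14, and it was 16 higher and 0 lower with shared barcodes assigned, including the same 12. Shares of all genes called in these settings are not given here, so a change particular to the members cannot be read from these counts.

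Among fibrillar collagens, 4 of 5 were higher in scaffold (median log2 difference 1.89). Col3a1, the collagen of early repair tissue, ran from 116.8 to 1012 CPM in scaffold (median 263.1) and from 16.1 to 317.4 CPM in lung (median 56.5). The overlap came from the healthy lung library of day 21; the next highest lung library had 75.6 CPM. The log2 difference was 2.12 ± 0.57 (SE, adjusted p = 0.0182). Col1a2 (type I collagen) ran from 80.5 to 489.6 CPM in scaffold and from 27.2 to 152.2 CPM in lung, a difference of 1.89 ± 0.52 (adjusted p = 0.0218). Col1a1 in healthy scaffolds stood at 53.0, 216.8 and 231.1 CPM at days 7, 14 and 21, and in scaffolds of tumour-bearing mice at 135.4, 52.4 and 122.1 CPM. In lung it stood at 26.1, 30.4 and 55.6 CPM in healthy and 13.6, 17.1 and 15.2 CPM in tumour-bearing mice. Its lowest scaffold library was below its highest lung library, and the log2 difference was 2.22 ± 0.55 (adjusted p = 0.0128). Col5a2 was also higher (log2 1.86), while Col5a1 had a difference of 0.79 that did not pass.

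Of 6 beaded and other collagens, 2 were higher, Col6a3 (log2 1.66) and Col15a1 (log2 2.22, adjusted p = 0.00992), the latter a collagen of basement membrane zones. Col14a1, a fibril-associated collagen, ran from 8.05 to 153.9 CPM in scaffold (median 25.5) and from 5.09 to 49.1 CPM in lung (median 24.8), and its difference of 0.27 was within the spread. Col6a1, a chain of beaded filaments, ran from 4.24 to 45.8 CPM in scaffold and from 1.70 to 21.3 CPM in lung (log2 0.89, adjusted p = 0.188). Col6a2 (1.12) and Col18a1 (1.41) did not pass either.

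Of the 5 basement membrane members tested edgeR called 0, with 0 at an unadjusted p under 0.05 and 0 by DESeq2, and their median was 0.01. Lamc1, a laminin chain, ran from 14.9 to 57.3 CPM in scaffold and from 5.69 to 86.7 CPM in lung. Nid1, which bridges laminin and collagen IV, ran from 2.54 to 85.3 CPM in scaffold and from 7.32 to 20.9 CPM in lung. Lamb1 had one of the lowest differences, -0.78 ± 0.50 (adjusted p = 0.293), with 2.10 to 25.6 CPM in scaffold and 4.88 to 58.9 CPM in lung. Its lung maximum was in the healthy day 21 library, and 33% of all Lamb1 UMIs lay in a cluster with keratinocyte markers, 97.3% of whose 2072 barcodes were shared between libraries and not assignable. Col4a1 in healthy lung at day 14 reached 94.8 CPM and in the other lung libraries was between 5.09 and 15.7 CPM; endothelial-like cells were 10.2% of that library and between 0.384% and 3.45% of the others, and their part in the level was not tested.

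Elastic fibre members went both ways. Fbln2, a fibulin that bridges fibres, was higher in scaffold (log2 2.15). Fbln1, a related fibulin, was lower: in scaffold it stood at 0.848, 3.93 and 9.80 CPM in healthy mice and at 0.932, 0.551 and 2.79 CPM in tumour-bearing mice at days 7, 14 and 21. In lung it stood at 14.6, 14.8 and 13.1 CPM in healthy and at 2.55, 6.51 and 3.99 CPM in tumour-bearing mice. Healthy lung was above every scaffold library, while the tumour-bearing lung libraries overlapped with scaffold, and the log2 difference was -1.92 ± 0.54 (adjusted p = 0.0232). It no longer passed with shared barcodes assigned, or when any one of 5 libraries was left out (healthy and tumour-bearing lung of day 14, healthy lung of day 7, healthy scaffold of day 7, tumour-bearing scaffold of day 14). Mfap5, a microfibril glycoprotein, ran from 7.63 to 148.5 CPM in scaffold and from 12.2 to 58.9 CPM in lung (log2 0.76), and Fbn1 from 7.22 to 112.3 CPM and from 5.69 to 24.5 CPM (log2 1.48, adjusted p = 0.0568). Eln (elastin) was not tested; it ran from 0 to 9.56 CPM in lung and from 0 to 1.78 CPM in scaffold.

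Among proteoglycans, Vcan and Lum (log2 1.74) were higher. Vcan ran from 34.5 to 123.7 CPM in scaffold (median 82.1) and from 1.05 to 47.9 CPM in lung (median 22.7), a difference of 1.98 ± 0.46 (adjusted p = 0.0085). Dcn did not differ beyond the spread (log2 -0.09, adjusted p = 0.931): it ran from 26.1 to 429 CPM in scaffold (median 150) and from 37.3 to 211.3 CPM in lung (median 125.1). Bgn (biglycan) had a difference of 1.01 that did not pass. Of the crosslinking enzymes Lox (lysyl oxidase) was the member with the largest difference of all, 2.52 ± 0.53 (adjusted p = 0.00465). It stood at 7.63, 14.0 and 24.1 CPM in healthy scaffolds and 8.86, 5.51 and 21.7 CPM in those of tumour-bearing mice, against 1.05, 3.48 and 8.18 CPM in healthy and 0, 0.814 and 2.58 CPM in tumour-bearing lung. Only the healthy lung library of day 21 reached into the scaffold range. Its relative Loxl1 ran from 0.848 to 15.7 CPM in scaffold and from 0.849 to 6.54 CPM in lung (log2 0.43).

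Fn1, among the adhesive members, was the one of the 33 tested whose 6 scaffold libraries all lay above its 6 lung libraries, which 5.78% of all genes tested did. It stood at 520.5, 464.1 and 899.5 CPM in healthy scaffolds and at 473.3, 394 and 401.4 CPM in those of tumour-bearing mice. In lung it stood at 113.9, 48.7 and 258.5 CPM in healthy and at 153.7, 51.2 and 109.8 CPM in tumour-bearing mice. The log2 difference was 2.25 ± 0.43 (adjusted p = 0.00276). Fstl1, a secreted glycoprotein, was also higher (log2 1.56, adjusted p = 0.0454). Sparc, a collagen-binding matricellular protein, ran from 59.3 to 521.4 CPM in scaffold and from 16.1 to 240.5 CPM in lung, and its difference of 1.37 did not pass (adjusted p = 0.0776). Postn (1.02), Thbs1 (-0.56) and Clec3b (-0.47) did not pass. Igfbp7 had a difference of -1.06 ± 0.50 (adjusted p = 0.146), with 10.5 to 90.0 CPM in scaffold and 17.8 to 235.6 CPM in lung, the lung maximum again in the healthy day 14 library with its endothelial-like cells.

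**Figure D3:**
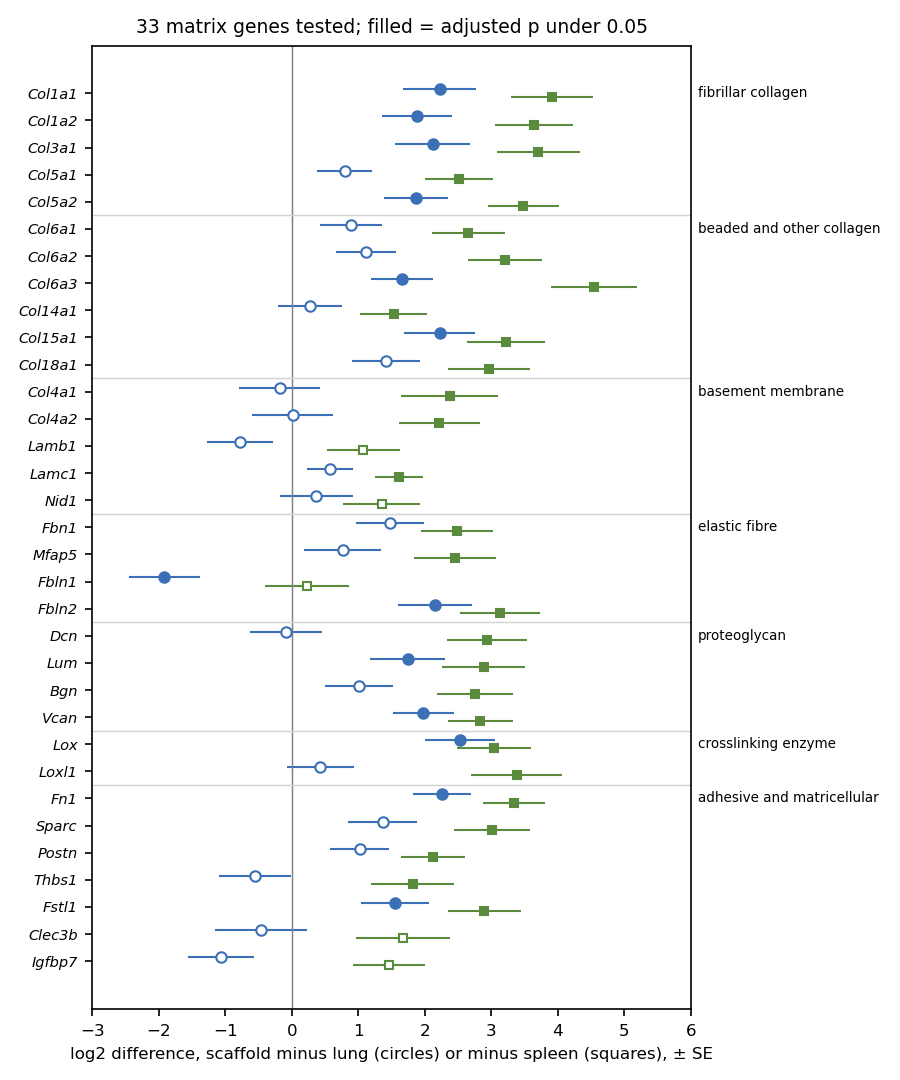
Log2 difference of each tested member, scaffold minus lung and scaffold minus spleen, with its standard error, by role; filled points passed an adjusted p under 0.05 in edgeR. Against lung 12 members are higher and Fbln1 is lower, and against spleen 28 are higher.

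When fibroblast-like cells were left out of the sums, a step chosen after seeing the data, 20 members could be tested and 3 were higher in scaffold than in lung, Fn1 (2.30 ± 0.41), Vcan (1.85 ± 0.45) and Col1a1 (1.70 ± 0.53); 9.29% of all genes were. Lamb1 (-3.70) and Igfbp7 (-2.30) were lower, where 13.1% of genes were. The Fn1 and Vcan differences were thus as large without fibroblast-like cells as with them. Within cell classes no member passed. In macrophage-like cells 3 members could be tested, Fn1 (-1.03), Lamc1 (1.26) and Vcan (2.34). EdgeR called 0, 2 had an unadjusted p under 0.05, and 0.64% of genes were called. Of the 539 lung barcodes in this fit 502 could not be assigned to lung, and 496 of these had their most UMIs in a scaffold library. The fit therefore cannot show whether macrophages of lung differ from those of scaffold. After assignment of shared barcodes 1 was called. Lung was then left with 11 macrophage-like cells of the tumour-bearing day 7 library and 10 of the healthy day 14 library. Fn1 within macrophage-like cells stood at 404.6, 322.1 and 728.2 CPM in healthy scaffolds and at 452.6, 359.1 and 464.1 CPM in those of tumour-bearing mice, and in lung, on 18 to 219 such cells a library, between 411.1 and 3139 CPM. In fibroblast-like cells, with 6 libraries of 10 or more such cells, of which 2 of the 3 from lung were those of day 21, edgeR called 0 of 33 tested (0.204% of genes), 5 had an unadjusted p under 0.05, and the median log2 difference was 0.44 against 0.08 over all genes. DESeq2 was not run on cell classes.

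Within fibroblast-like cells some levels differed between the tissues as values. Col1a1 in healthy scaffolds stood at 9900, 5492 and 3396 CPM of these cells at days 7, 14 and 21, on 6, 56 and 66 cells, and in healthy lung at 1079, 1234 and 2444 CPM on 9, 11 and 28 cells. Fbln1 stood at 170.7, 95.1 and 113.1 CPM in healthy scaffold and at 637.5, 685.3 and 0 CPM in healthy lung. In tumour-bearing mice Fbln1 stood at 82.3, 46.0 and 84.3 CPM in scaffold and at 772.8, 412.1 and 191.3 CPM in lung. These rest on 8, 9 and 53 such cells in scaffold and on 3, 6 and 36 in lung. All UMIs of the class came to 3882 in tumour-bearing lung and 11717 in healthy scaffold at day 7. Fbln1 values of this size therefore rest on very few UMIs, and a difference between the tissues cannot be read from them. The lung values of day 21 rest on barcodes of which 58 of 64 had their most UMIs in a scaffold library.

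The ratio of Col3a1 to Dcn, 2 genes read almost wholly in fibroblast-like cells, set the libraries apart; it was looked at after the data were seen and is a description. In lung there were 0.316, 0.358 and 2.85 Col3a1 UMIs per Dcn UMI in healthy mice at days 7, 14 and 21, and 0.358, 0.221 and 1.86 in tumour-bearing mice. Scaffold had 3.75, 0.994 and 2.36 in healthy and 9.79, 1.31 and 1.97 in tumour-bearing mice. The 4 lung libraries of days 7 and 14 were below every scaffold library, and the lung libraries of day 21 lay within the scaffold range. With shared barcodes assigned, the day 21 lung values were 0.267 (4 against 15 UMIs) in healthy and 0 (0 against 54 UMIs) in tumour-bearing mice, and the 6 lung libraries were then all below the 6 scaffold libraries.

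**Figure D4:**
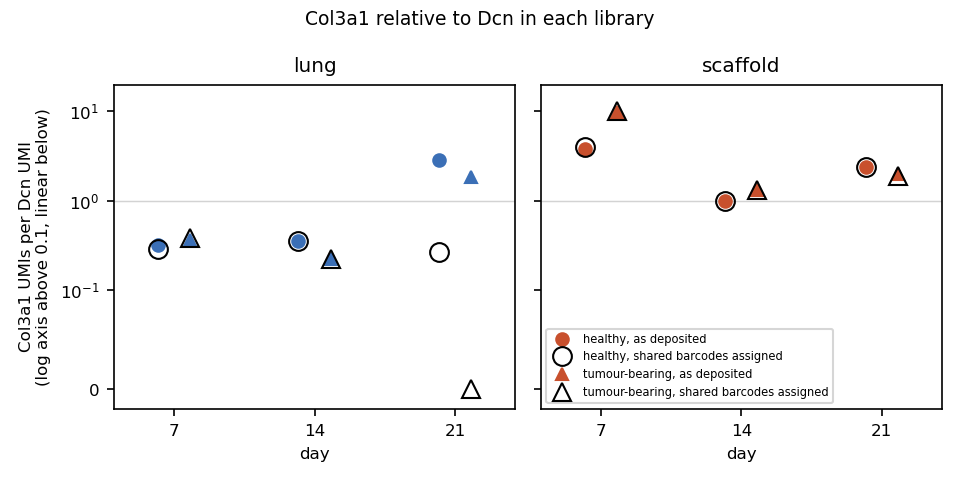
Col3a1 UMIs per Dcn UMI in each lung and scaffold library, by status and day, as deposited and with shared barcodes assigned. Lung at days 7 and 14 lies between 0.221 and 0.358, and the day 21 lung libraries move from 2.85 and 1.86 to 0.267 and 0 once shared barcodes are assigned.

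Against spleen, 28 of 33 members were higher in scaffold (16.6% of all genes were), 0 were lower (13.5% of genes were; 31 members had an unadjusted p under 0.05, all higher, and DESeq2 called 30, all higher), and the median log2 difference was 2.83 against -0.07 over all genes. Col6a3 (log2 4.54), Col1a1 (3.91), Col3a1 (3.70) and Fn1 (3.35) were among them. The members that did not pass were Lamb1 (1.07), Nid1 (1.35), Fbln1 (0.23), Clec3b (1.67) and Igfbp7 (1.46). Of the 33, Col6a3 and Fn1 had every scaffold library above every spleen library, which 7.81% of all genes tested did. Without fibroblast-like cells 20 were tested, 9 were higher (14.5% of genes) and Lamb1 was lower (log2 -2.18; 16.2% of genes). Lung was above spleen for 6 members, Col6a3, Fbln1, Dcn (log2 3.03), Loxl1, Thbs1 and Igfbp7 (2.53), where 5.77% of genes were, with a median of 1.69. That count rested on single libraries: it was 22 without the healthy spleen library of day 21, and 26 with shared barcodes assigned. It was 10 to 13 without the healthy scaffold, healthy lung or tumour-bearing spleen library of day 21. It was 1 or 2 when a lung library of day 7 or 14, a healthy spleen library of day 7 or 14 or the tumour-bearing spleen library of day 14 was left out. The shares of all genes called in these settings are not given here, so these counts show no change particular to the members.

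By status, scaffold against lung gave 1 member in healthy mice, Fn1 (log2 2.52; 2.77% of genes were higher), and 4 in tumour-bearing mice, Col5a2 (3.14), Lox (3.08), Col6a3 (2.44) and Fn1 (1.99; 6.65% of genes). Scaffold against spleen gave 10 in healthy mice (8.9% of genes) and 27 in tumour-bearing mice (10.1%). The difference between the statuses was tested as the tumour effect in scaffold minus that in lung; edgeR called 0 members for it and 0% of genes, 3 had an unadjusted p under 0.05, and DESeq2 called 0. The lowest adjusted p was 0.485, for Col5a2.

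Most members had lower values in tumour-bearing than in healthy lung, and 1 of them passed the test. Postn (periostin, a matricellular protein of collagen fibres) stood at 4.18, 27.8 and 19.6 CPM in healthy lung at days 7, 14 and 21 and at 0, 7.32 and 6.33 CPM in tumour-bearing lung; 3 counts in that day 7 library would be 2.55 CPM. It was lower in tumour-bearing mice on each of the 3 days, although the healthy day 7 value lies within the tumour-bearing range, and the log2 difference was -1.67 ± 0.48 (adjusted p = 0.046), where 2.91% of genes were lower. It passed in 1 of the 18 fits that each left out 1 library. In the healthy day 21 lung library 80.1% of UMIs lay on barcodes not assignable to it. Summed fibrillar collagens at day 21 were 557.9 CPM in healthy and 127.4 CPM in tumour-bearing lung as deposited. After assignment they were 96.6 and 10.4 CPM. Without the healthy lung and spleen libraries of day 21 no member passed, while with shared barcodes assigned more did. In all, 30 of the 33 members had a negative difference, with a median of -1.15 against -0.22 over all genes. By unadjusted p edgeR gave 12 lower and 1 higher, and DESeq2 called 3 (Col5a2 and Postn lower, Vcan higher). Col5a2 stood at 11.5, 16.5 and 27.8 CPM in healthy and at 1.70, 0 and 7.04 CPM in tumour-bearing lung (adjusted p = 0.0545). Vcan had the largest positive difference, 1.47 ± 0.52 (adjusted p = 0.0832), with 1.05, 11.3 and 40.9 CPM in healthy and 13.6, 31.7 and 47.9 CPM in tumour-bearing lung.

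Cell shares moved with these levels, and their part in the differences was not tested. Fibroblast-like cells were the smaller share in tumour-bearing lung on each day (given above; 0.666% ± 0.379 against 1.63% ± 0.946, SD, n = 3, 2-sided exact permutation p = 0.2, where 3 against 3 cannot go below 0.1). Endothelial-like cells were 3.45%, 10.2% and 1.85% of healthy and 1.53%, 1.05% and 0.384% of tumour-bearing lung cells. Vcan within monocyte-like cells stood at 0, 86.1 and 186.8 CPM in healthy lung and at 75.4, 145.2 and 1108 CPM in tumour-bearing lung. In scaffold it stood at 309.2, 177 and 261 CPM in healthy and at 704.2, 776.5 and 1229 CPM in tumour-bearing mice. These class values were not tested. They rest on 55, 90 and 41 monocyte-like cells in healthy lung and on 97, 127 and 71 in tumour-bearing lung. In scaffold there were 80, 112 and 87 such cells in healthy and 102, 42 and 67 in tumour-bearing mice. At day 21 the 41 cells of healthy lung held 16064 UMIs, 25 of them of members. Of these cells 27 were assignable to lung, with 5 member UMIs, so that Vcan value rests on very few UMIs.

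In scaffold no member passed for tumour. EdgeR called 0 of 33 (0.161% of genes in either direction), 5 had an unadjusted p under 0.05, all lower, and DESeq2 called 1, Clec3b. Clec3b, which binds plasminogen, stood at 10.2, 61.9 and 201.4 CPM in healthy scaffolds and at 1.86, 10.5 and 39.7 CPM in those of tumour-bearing mice, lower on each day, and had the lowest adjusted p, 0.0871 (log2 -2.31 ± 0.47). Postn stood at 21.2, 24.4 and 60.3 CPM in healthy and at 9.32, 6.61 and 16.7 CPM in tumour-bearing scaffold (log2 -1.52, adjusted p = 0.168). The median over the members was -0.46.

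In spleen 4 members were lower in tumour-bearing mice, Clec3b (log2 -2.84), Fstl1 (-2.55), Lamc1 (-2.22) and Dcn (-2.0), where 0.52% of genes were lower. Dcn stood at 16.2, 13.3 and 109.6 CPM in healthy spleen and at 4.98, 3.33 and 14.2 CPM in tumour-bearing spleen, and Clec3b at 9.70, 12.5 and 71.9 against 2.49, 0.555 and 7.80 CPM. Lamc1 stood at 11.3, 6.66 and 58.2 CPM in healthy and at 4.36, 0.278 and 9.16 CPM in tumour-bearing spleen, and Fstl1 at 1.62, 5.83 and 171.2 against 0, 1.11 and 19.3 CPM. The healthy library of day 21 was the highest for each of the 4. Without it, or without any other spleen library of days 14 and 21, none passed; without the tumour-bearing spleen library of day 7 there were 11, and without the healthy one 9. No share of all genes is given beside these leave-out counts, so a change particular to the members cannot be read from them. With shared barcodes assigned none of the 4 passed, and that library held 0 UMIs of all 37 members.

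Most members stood higher in later scaffold libraries, and 3 rose past the threshold. In a model with 1 mean per group and a linear term in day, 32 of 33 members had a positive slope in scaffold, with a median of 0.89 log2 per 7 days against 0.01 over all genes. EdgeR called 3 higher, where 0.403% of genes were, 19 had an unadjusted p under 0.05, and DESeq2 called 7. Fstl1 stood at 19.5, 105.6 and 376.7 CPM in healthy scaffolds and at 20.7, 54.6 and 129.9 CPM in those of tumour-bearing mice at days 7, 14 and 21, a slope of 1.73 ± 0.23 (adjusted p = 0.00391). Clec3b, with the values given above, had a slope of 2.15 ± 0.35 (adjusted p = 0.0171). Nid1 stood at 2.54, 21.4 and 85.3 CPM in healthy and at 4.43, 13.8 and 39.4 CPM in tumour-bearing mice, a slope of 1.97 ± 0.38 (adjusted p = 0.0373). All 3 were higher at each later day in both statuses. Dcn, at 35.6, 272.6 and 429 CPM in healthy and 26.1, 89.3 and 210.8 CPM in tumour-bearing mice, had a slope of 1.65 that did not pass (adjusted p = 0.0903). Fn1 (0.17) and Col15a1 (-0.05) were nearly level.

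The 3 calls rest on single libraries: without the healthy scaffold library of day 7 or that of day 21 none passed, without either of those of tumour-bearing mice Fstl1 alone did, and without the tumour-bearing spleen library of day 7 there were 5. Here too the shares of all genes called in these settings are not given. Fibroblast-like cells moved with the levels, from 0.713% to 3.55% of healthy and from 0.523% to 3.28% of tumour-bearing scaffold cells between days 7 and 21. Without fibroblast-like cells 0 of 20 members were called for day, where 0.183% of genes were, so a count of 0 says little; 2 had an unadjusted p under 0.05. The median slope was 0.30 against 0.01 over all genes; Fstl1 had a slope of 0.96 ± 0.52 and Nid1 one of 0.64 ± 0.62, while Clec3b did not pass the filter on low counts. Within fibroblast-like cells Nid1 stood at 341.4, 558.7 and 1284 CPM in healthy scaffold and at 349.9, 1150 and 1274 CPM in tumour-bearing mice, higher at each later day. Fstl1 within them, at 3670, 2568 and 5608 CPM and at 1503, 3909 and 4034 CPM, did not rise at each step in healthy mice. These levels of Nid1 and Fstl1 rest on 6, 56 and 66 fibroblast-like cells in healthy and 8, 9 and 53 in tumour-bearing scaffold. The 6 cells of healthy scaffold at day 7 held 11717 UMIs in all. A change with day within these cells was not tested. Animals of day 21 were also older, so age, time after inoculation and the other conditions of a day cannot be told apart.

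**Figure D5:**
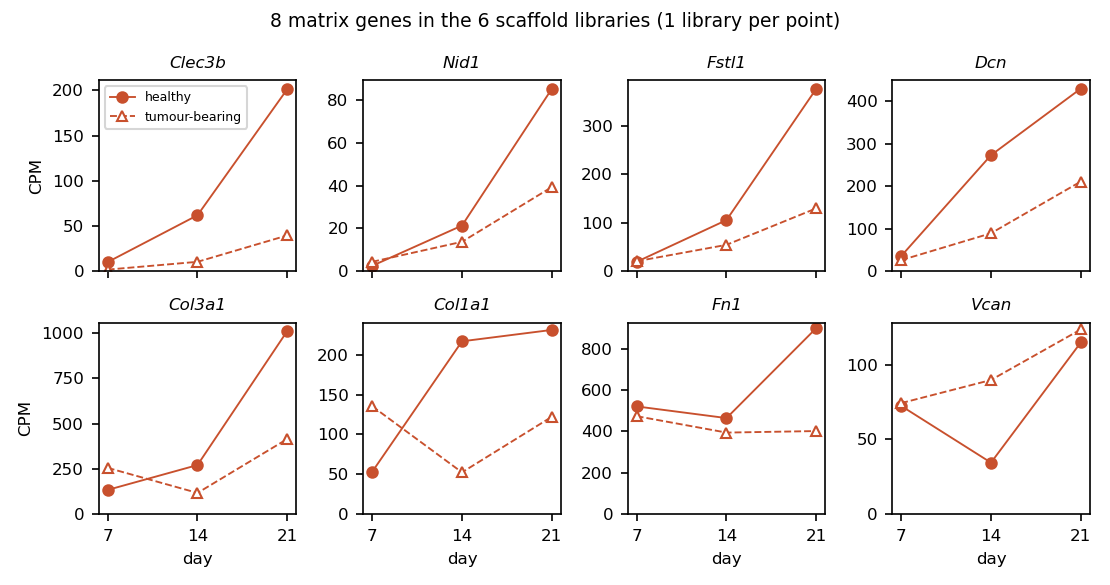
CPM in scaffold libraries by day (linear axis) for members with a day slope past the threshold and others with many UMIs, healthy and tumour-bearing. Fstl1, Clec3b and Nid1 are higher at each later day in both statuses, and Fn1 stays between 394 and 899.5 CPM.

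Other genes of the matrix pathway, from lists set down beside the members, gave the following counts for scaffold against lung, to be read against the 9.94% of all genes tested that were higher and the 10.1% that were lower. Of 24 genes of collagen biosynthesis 20 were tested, 7 were higher and 0 lower, with a median of 0.98. Crtap, part of a prolyl hydroxylase complex of collagen, had a log2 difference of 1.90 and the lysyl oxidase relative Loxl2 one of 1.63. Of 29 matrix receptors 21 were tested, 9 were higher (Cd36 at 2.68 and the syndecan Sdc1 at 2.51 the largest) and 2 lower (the integrin chains Itgb6 at -3.74 and Itga2 at -2.26). Of 51 other structural matrix genes 33 were tested, 3 were higher (Col5a3 at 2.59 and Efemp2 at 2.24 the largest) and 4 lower (the collagen IV chains Col4a4 at -5.26 and Col4a3 at -4.24 the largest), with a median of -0.09. Of 19 genes of TGF-beta signalling 15 were tested and 2 were higher, Pmepa1 (1.24) and Tgif1 (1.11), both targets of the pathway or regulators in it.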

How the data were processed

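The authors deposited 1 table of whole-number UMI counts, genes by barcodes, for each of the 18 libraries, made with mm10 and Seurat version 2 per the submitters' processing notes; about 1000 bead and cell pairs per library were amplified per the labels' protocols. Which aligner, annotation and cell calling were used is not given in the sources used here. Barcodes with at least 200 genes and under 20% mitochondrial UMIs were kept, and no doublets were removed. A barcode shared within a day was assigned to the library where it had 5 or more times as many UMIs as in any other, or else dropped; this is the alternative called assigned. Gene coordinates are those of GRCm38.

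Cells were clustered over all libraries without the 37 members (scanpy 1.11.5, leidenalg 0.10.2; 2000 variable genes, 30 components, 15 neighbours, resolution 1, 28 clusters) and named "-like" from marker lists, with 3 markers at least 1.5 times higher required. The class with the most markers among a cluster's 10 leading genes was chosen, and at least 1 such marker was required. A cluster without a name can therefore still raise markers of a class. The unnamed cluster led by Cxcl3 and Ccl24 raised 4 monocyte and 4 macrophage markers. Thresholds of naming were set after the clusters were seen. Counts were summed per library, or per library and class of at least 10 cells, and tested with edgeR 4.0.16 (TMM, filterByExpr, quasi-likelihood test, R 4.3.3), with Benjamini-Hochberg adjustment over all genes tested. A member is called at an adjusted p under 0.05. DESeq2 1.42.0 was an alternative. Intervals and tests on cells cover counting error only; class shares were compared over libraries with exact permutation tests.

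The day of harvest in the labels pairs the libraries. Deviations of same-day libraries from their group means correlated between 0.0905 and 0.811 over 18 pairs of tissues within a status, 17 of them over 0.1; with shared barcodes assigned they ran from -0.157 to 0.563, 14 over 0.1. The day was kept as a block because the labels give it. On simulated counts for scaffold against lung (10896 genes tested), 63.6% of 66 genes changed 4-fold and 98.5% of 68 changed 16-fold were recovered, but 3.03% of those changed 2-fold. For tumour in lung (10779 genes) the shares were 18.2%, 91.2% and 0% for 4-fold, 16-fold and 2-fold. The simulated counts had 1 mean profile, no day effect, no shared barcodes and 1 dispersion of 0.247, estimated without the block. In the real fits the square root of the dispersion was 0.354 for tissue and 0.315 for tumour, a smaller spread than simulated. These shares therefore do not give the rate at which the fits used here recover such changes.

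The members, lists and tests were chosen with earlier results of these data known. Values by library are printed for members called for tumour in any tissue, the 2 members of each role with the most UMIs, and the 3 largest differences each way between scaffold and lung; of other lists the 2 largest called each way are named. Further members were named after their values were seen.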

Additional observations from a re-analysis of the deposited data

Results flagged for a closer look

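Summed CPM of all members and of 7 roles was looked at in each tissue, 24 groups of 6 libraries. In 13 of the 24 the highest library's gap to the next, divided by the range, was above Dixon's 95% critical value for 6. The chance rate of about 1 in 20 holds for 6 like draws from a normal distribution. These groups mix statuses and days, and the sum of all members contains the roles. The 24 groups are therefore not independent, and the 13 cannot be set against that rate. The library was the healthy one of day 21 in each of the 13. In scaffold it stood at 5578 CPM for all members (next highest 2450 CPM), 1842 CPM for fibrillar collagens, 280.1 CPM for beaded and other collagens and 2177 CPM for adhesive members. With shared barcodes assigned these were 6051, 2007, 304.2 and 2369 CPM, so the scaffold library stands as far from the rest on its own barcodes. In lung it stood at 557.9 CPM for fibrillar collagens and at 96.6 CPM after assignment. In spleen it stood at 2249 CPM for all members (next highest 376.1 CPM), 647.1 CPM for fibrillar collagens, 75.3 CPM for beaded and other collagens and 191.7 CPM for basement membrane. It also stood at 195.1 CPM for elastic fibres, 195.1 CPM for proteoglycans, 23.97 CPM for crosslinking enzymes and 920.9 CPM for adhesive members. After assignment each of these spleen values was 0 CPM. On that day 14 fibroblast-like barcodes of the healthy spleen library were kept, and none of them was assignable to spleen.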

How the results depend on the processing

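Beside the counts in the report, members called changed as follows; leaving out the 2 healthy day 21 libraries of lung and spleen, leaving out fibroblast-like cells and their combinations were chosen after seeing the data. Higher in scaffold than lung, 12: 3 outside fibroblast-like cells and 1 with no replicate block. Lower, 1: 3 with no filter on low counts, 0 with shared barcodes assigned, 2 without the 2 day 21 libraries, 2 outside fibroblast-like cells and 0 with no replicate block. Scaffold over spleen, 28: 9 higher and 1 lower outside fibroblast-like cells. Lung over spleen, 6: 20 by DESeq2, 26 with no filter, 26 assigned, 24 without the 2 libraries, 24 assigned and without them, and 1 with no replicate block. Tumour in lung, 1: 4 without TMM, 3 by DESeq2, 5 with no filter, 5 assigned, 2 outside fibroblast-like cells, and 0 with 400 or more genes a cell, without the 2 libraries (assigned or not) and with no replicate block. Tumour in scaffold, 0: 1 by DESeq2, 2 with no filter and 1 assigned. Tumour in spleen, 4: 9 by DESeq2, 11 with no filter, 1 assigned, 1 with 400 genes, 1 outside fibroblast-like cells, and 0 without the 2 libraries (assigned or not) and with no replicate block. Day in scaffold, 3: 7 by DESeq2, 13 with no filter, 1 assigned and without the 2 libraries, 0 outside fibroblast-like cells and 7 with day 21 against day 7. Macrophage-like cells, 0: 1 assigned, on the few assignable lung cells given above. The cause of these changes was not tested. Shares of all genes called in each setting are not given beside these counts, so changes in the members and in calls over all genes cannot be told apart. Leaving out each library in turn gave 6 to 14 higher and 0 to 2 lower for scaffold against lung, and 24 to 30 and 0 against spleen. It gave 1 to 22 for lung over spleen, 0 to 3, 0 to 1 and 0 to 11 for tumour in lung, scaffold and spleen, 0 for their difference, 0 to 5 for day and 0 in either cell class. The difference in fibroblast-like share, 0.945 percentage points, was 0.654 to 1.26, and member UMIs in fibroblast-like cells were 64.9% to 72.8% and in macrophage-like cells 9.78% to 12.9%. Each member called over all cells kept its sign in every setting run, as did Lamb1 and Igfbp7 for scaffold against lung. Differences that did not pass could change sign: for scaffold against lung Dcn did in 11 of 27 settings, Clec3b in 3 of 26, Nid1 in 3 of 27, Col14a1 in 2 of 26, and Col5a1, Col6a1 and Sparc in 1 of 27. Library totals without TMM moved the median of all genes for tumour in lung from -0.22 to -0.49 and for scaffold against lung from -0.03 to 0.11. The block and the assignment could not be run in fibroblast-like cells, with too few libraries. Depth limits Nid2, Eln, Mfap4 and Tnc, which had 25 to 61 UMIs each.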
